A study of Mus musculus with 42 samples.

Results

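Mouse embryonic stem cells (ESCs) that lack DGCR8 were compared with ESCs that retain it, in the naive state and after the first 6 h out of it. The comparison takes 4 of the 42 libraries of the series, paired by hour, and covers all 16345 named genes of the table. The knockout group is a DGCR8 knockout ESC line, with 1 library in 2i/LIF medium (0 h) and 1 after 6 h in medium that induces epiblast-like cells (EpiLCs). The control group is the KH2-ISY1 line, an ESC line with a doxycycline-inducible Flag-tagged ISY1 transgene, without doxycycline (Dox), at the same hours. The labels give no treatment for the knockout, and neither its parent line, its clone number nor the part of Dgcr8 that was deleted. Loss of DGCR8 and a difference between 2 ESC lines therefore cannot be told apart here. The series addresses the passage from naive to primed pluripotency and the part of microRNAs in it.

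Most microRNAs begin as hairpins in long nuclear transcripts, which DGCR8 binds so that the nuclease DROSHA can cut the hairpins out. ESCs without DGCR8 lack nearly all such microRNAs. The most abundant microRNAs of mouse ESCs come from the miR-290 cluster, which shares its main seed, the bases that pair with target mRNAs, with the miR-302 family. These microRNAs are known to promote the passage from G1 to S phase and to repress Lats2, Rbl2, Casp2 and Cdkn1a, among others.

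The knockout has no small RNA library in the series, so the microRNAs can be shown only for the control cells. Each value below is from 1 small RNA library per hour, in the authors' scaled values, and the table names no arm. The heading of the 6 h column ends in a mark of 0 h that no label explains, so each 6 h microRNA value rests on reading that column as 6 h. Among 256 microRNAs, the 7 members of the miR-290 cluster held 74.8% of the summed values at 0 h and 43.1% at 6 h. miR-292 stood at 184666.2 at 0 h and 35262 at 6 h, and miR-291a at 43611.4 and 5088.3. miR-294 stood at 30197.5 and 5726, miR-293 at 23972.1 and 46298.2, and miR-295 at 10427.3 and 8748.8. The 4 miR-302 members held 0.0512% at 0 h and 0.356% at 6 h. Outside these clusters the highest by the mean of both hours were miR-182 (3143.3 and 15788.7), miR-7a (4269.2 and 11113.3), miR-183 (1566.7 and 7538.5), miR-26a (1050.3 and 7746) and miR-20a (1250.2 and 6163.3). At 0 h alone others stood above these, such as miR-370 at 6205, which was chosen after its value was seen. The mature sequences below (RefSeq, build GRCm38.p6) show the seeds of some of the microRNAs whose loss is the question here. miR-292, with 47% of the summed values at 0 h and 14.8% at 6 h, is not among them, so its seed is not shown. Capitals mark the seed, bases 2 to 8.
miR-291a-3p (chr7:3218968-3218989, + strand): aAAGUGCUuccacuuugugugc
miR-294-3p (chr7:3220691-3220712, + strand): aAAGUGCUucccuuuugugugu
miR-295-3p (chr7:3220815-3220837, + strand): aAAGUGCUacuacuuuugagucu
miR-302b-3p (chr3:127545275-127545297, + strand): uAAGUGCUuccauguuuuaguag
miR-302d-3p (chr3:127545665-127545687, + strand): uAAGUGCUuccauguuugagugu
miR-293-3p (chr7:3220390-3220411, + strand): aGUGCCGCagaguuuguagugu
miR-20a-5p (chr14:115044183-115044205, + strand): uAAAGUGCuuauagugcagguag
The first 5 share 1 seed. miR-293-3p has another, and miR-20a-5p, of the miR-17-92 family, carries a seed shifted by 1 base.

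Levels below are the deposited values, gene reads divided by 1 size factor per library, and are not adjusted for gene length, so they compare samples within a gene and not genes with each other. They are given for the knockout at 0 h and 6 h and then for KH2 at 0 h and 6 h. Differences are knockout minus KH2 in log2(value + 1), averaged over the pairs at 0 h and 6 h, with a standard error (SE). Each line and hour has 1 library, so single values carry no replicate error. The spread of the line difference between the hours of 3 windows (0 and 6 h, 24 and 48 h, 72 and 96 h; 12 libraries in all) stands in for replicate spread, and a gene is called at an adjusted p under 0.05 by limma. The p-values therefore measure the spread between these libraries only.

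Dgcr8 itself stood at 43.4 and 43.3 in the knockout and at 96.5 and 231 in KH2. Both knockout libraries lay below all 18 KH2 libraries of the table (59.6 to 231), and the difference was -1.76 (SE 0.35, adjusted p = 0.0138). The call was lost without the 6 h pair (highest adjusted p over 17 alternatives 0.13). Reads that remain may lie outside the deleted part and check nothing about it. The ESC markers Pou5f1, Sox2, Nanog, Esrrb, Zfp42 and Klf4 summed to 24123.8 and 22965.7 in the knockout and 23810.4 and 23371.4 in KH2. The label naive rests on the 2i/LIF medium of both lines at 0 h. By 6 h KH2 Klf4 stood at 206.5, against 2519.1 at 0 h, and Socs3, a STAT3 target chosen after its values were seen, at 71.4 against 1640. Fgf5, a marker of EpiLCs, was at 2.4 or less in all 4 libraries. It is among 4 epiblast-like markers, whose sum was higher in the knockout (390.9 and 481.4 against 260 and 254.2). Of these, Otx2 was called higher, and Fgf5, Pou3f1 and Dnmt3b were not called.

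The knockout libraries held an estimated 17.835 and 11.682 M reads (M, mega) and the KH2 libraries 6.354 and 9.15 M reads, so that 1 read was worth 0.313 to 0.87 units. A gene listed at 0 may still have an expected count of up to 3 reads (0.938 to 2.61 units), a limit that covers counting error only. Mitochondrial genes held 5.99% and 5.64% of the knockout values, against 2.77% to 5.4% over the 18 KH2 libraries. Ribosomal protein genes held 4.8% and 3.85%, against 5.04% to 9.01%. Markers of 4 other cell types had summed values that were lower in the knockout at both hours. The 3 of 7 fibroblast markers in the table summed to 14.3 to 20.4 in the knockout and 20.8 to 51.3 in KH2, and the 4 of 5 primitive endoderm markers to 51.4 to 65 and 62.4 to 90.4. Trophoblast markers (5) summed to 18.1 to 75.2 and 77.4 to 131, mesoderm markers (3 of 4) to 55.3 to 63.8 and 84.4 to 190.5, and neural markers (4), which had no constant direction, to 443.4 to 567.2 and 427.8 to 677.9. Epiblast-like markers (4) went the other way and summed to 390.9 to 481.4 in the knockout and 254.2 to 260 in KH2. No marker was at 0 in all 4 libraries. The part of these shares and markers in the results was not tested.

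Of 16267 genes tested, 1508 were higher in the knockout (9.27% of those tested) and 1643 were lower (10.1%). The difference was at least 2-fold for 945 and 901 of them, and 5751 genes passed an unadjusted p under 0.05. Of all genes tested, 70.3% had a difference of the same sign at 0 h and 6 h. Across genes, which are not independent replicates, the differences at 0 h and 6 h had a correlation of 0.604. Both knockout libraries lay above all 18 KH2 libraries, from any hour or Dox state, for 1353 genes (8.32%) and below all of them for 1672 (10.3%). Of the called genes, 791 of the 1508 higher and 937 of the 1643 lower did so. The counts rested on the pairs used: with 0 h left out they were 468 higher and 251 lower, with 6 h left out 630 and 663, and with 72 h or 96 h left out 995 and 881 or 1006 and 889. Another scaling of the libraries moved the share of higher calls from 47.9% to 60% (median-ratio scaling) or 57.2% (trimmed-mean scaling), with no called gene turned.

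**Figure D1:**
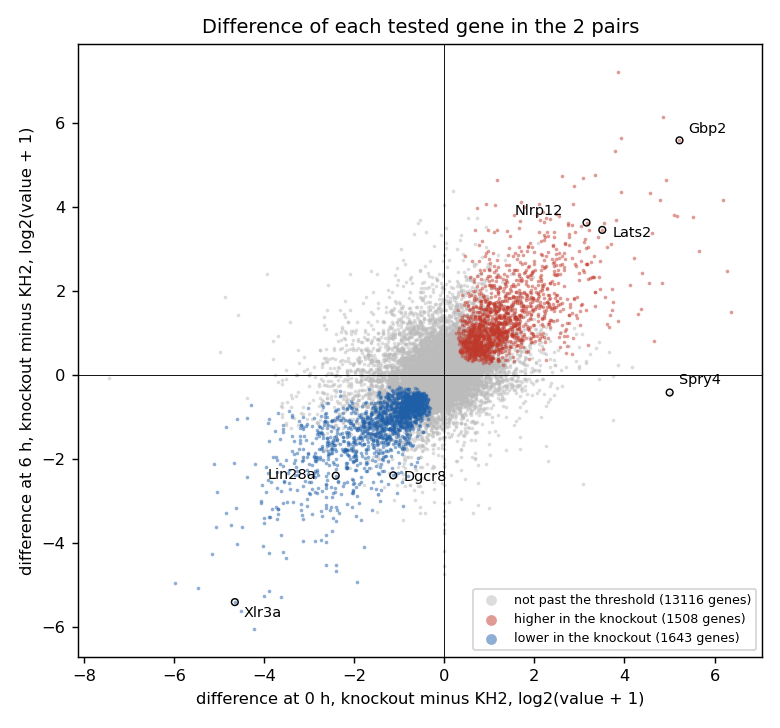
Difference of each tested gene between the lines at 0 h (x axis) and at 6 h (y axis), knockout minus KH2 in log2(value + 1), 1 point per gene. The 1508 higher (red) and 1643 lower (blue) genes lie in the upper right and lower left corners, and Spry4 stands apart at 5 at 0 h and -0.42 at 6 h.

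Among the 12 higher genes with the largest difference in both pairs, 4 encode guanylate-binding proteins, GTPases of the response to interferon and infection. Gbp2 stood at 36.3 and 104.3 in the knockout and at 0 and 1.2 in KH2, a difference of 5.4 (SE 0.47, adjusted p = 0.0014). Gbp4 stood at 33.1 and 63.8 against 0 and 3.6, and Gbp9 at 26.6 and 38.6 against 0 and 1.2. Gbp2b stood at 27.8 and 69.5 and had no read in KH2 at either hour, which puts it at least 10.7-fold higher at 0 h and at least 38.9-fold higher at 6 h against a floor of 3 reads per library. The knockout libraries were above both KH2 libraries for each of the 4, which choosing genes for a large difference in both pairs makes likely in advance. Gbp2 and Gbp2b are close paralogs whose reads the counting may split, and both reached higher values in other KH2 libraries (up to 251.6 and 145.3).

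Other genes of immune function stood beside them. Samd9l, a gene of antiviral defence, was at 138.1 and 187.1 against 0.9 and 9.5 (5.18, SE 0.5, adjusted p = 0.00171), above all 18 KH2 libraries, of which the highest was at 21. Psmb8, a subunit of the immunoproteasome, was at 34.7 and 21 against 0 and 0.6, and Erap1, which trims peptides for antigen presentation, at 381.9 and 315.7 against 24.3 and 5.4 (4.77, SE 0.41, adjusted p = 0.0014). Other KH2 libraries reached 37.1 for Psmb8 and 289.5 for Erap1. The remaining 5 have other roles. Cntnap1, an axonal contact protein, was at 240.9 and 69 against 7 and 1.8 (4.78, SE 0.76, adjusted p = 0.00653). Smyd1, a methyltransferase of heart and skeletal muscle, was at 85.3 and 183.3 against 5.2 and 3.6, and Cyp1b1, a cytochrome P450, at 22.8 and 31 against 0 and 0.6. Other KH2 libraries reached 54.5 for Smyd1 and 63.1 for Cyp1b1, which stood at 55.8 in KH2 cells returned to 2i/LIF after 24 h without Dox. St8sia5, a sialyltransferase, was at 53.4 and 81 against 2.6 and 3, and AI593442 at 38.1 and 147.1 against 1.7 and 0. The knockout libraries of these 5 genes lay above both KH2 libraries, which the same choice of genes makes likely in advance. The calls of Gbp2b, Cntnap1 and Psmb8 were each lost under 1 of 17 alternatives and that of St8sia5 under 3. Leaving out 0 h gave adjusted p-values of 0.0719 for Cntnap1, 0.0803 for Psmb8 and 0.137 for St8sia5, and leaving out 6 h gave 0.147 for St8sia5.

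**Figure D2:**
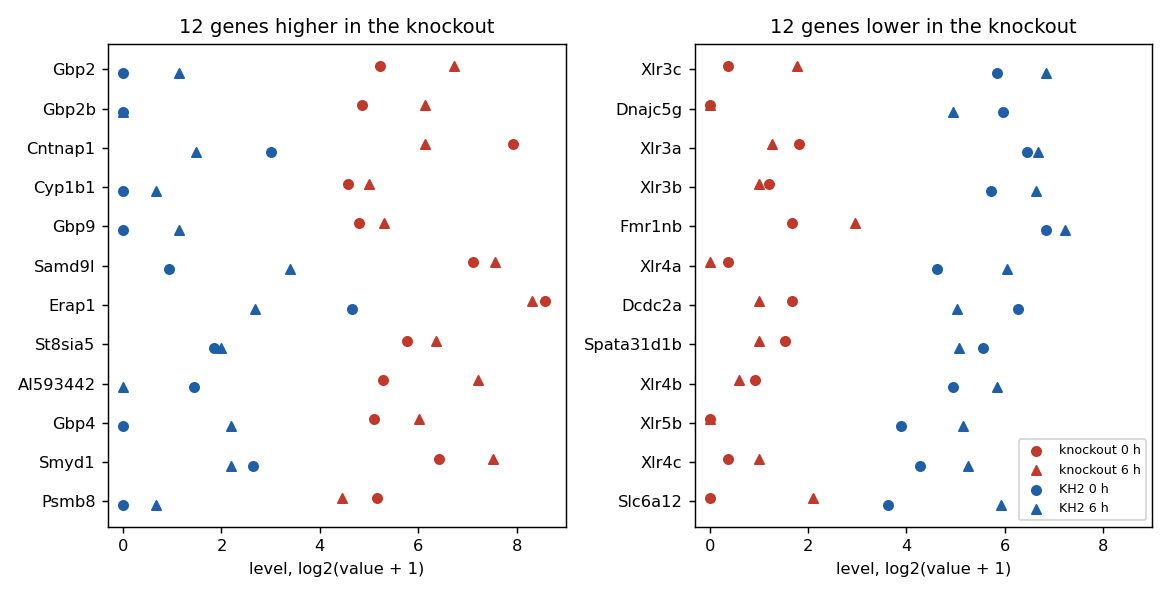
Levels in log2(value + 1) of the 12 higher (left) and 12 lower (right) genes with the largest difference in both pairs, 1 point per library (circles 0 h, triangles 6 h; red knockout, blue KH2). The knockout and KH2 points of each gene do not overlap, which choosing genes for a large difference in both pairs makes likely in advance. Genes such as Gbp2b in KH2 and Dnajc5g in the knockout lie at 0.

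Of the 12 lower genes, 7 belong to the Xlr family, a group of lymphocyte- and germ-cell-expressed genes clustered on the X chromosome. Xlr3a stood at 2.5 and 1.4 in the knockout and at 87 and 100.6 in KH2 (-5.03, SE 0.3, adjusted p = 0.000924). Xlr3c stood at 0.3 and 2.4 against 56.5 and 112.5 (-5.26, SE 0.41), and Xlr3b at 1.3 and 1 against 51.3 and 97.6 (-5.07, SE 0.39). Xlr4a was at 0.3 and 0 against 23.5 and 64.9, Xlr4b at 0.9 and 0.5 against 29.6 and 56, and Xlr4c at 0.3 and 1 against 18.3 and 36.9. Xlr5b had no read in the knockout and stood at 13.9 and 34.5 in KH2, at least 14.8-fold lower at 0 h and 24.2-fold lower at 6 h. All 9 Xlr genes in the table were lower (median difference -4.63), each below all 18 KH2 libraries, and all 9 calls held under each of the 17 alternatives. The list was drawn up with this result known, so its count is a description. The paralogs are nearly identical and reads may be split between them, so the 9 are not independent.

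The Xlr genes stayed low in the knockout beyond 6 h. Over 24 to 96 h Xlr3a lay between 3.4 and 6.1 in the knockout and between 117.4 and 289.4 in KH2. Its early difference did not pass the test against the later one (-0.13, SE 0.37, adjusted p = 0.923). Fmr1nb, another X-linked gene, best known from testis, stood at 2.2 and 6.7 against 113.9 and 147.6 (-4.72, SE 0.32, adjusted p = 0.00105). The other 4 lower genes lie on autosomes. Dnajc5g, a J-domain protein gene, had no read in the knockout and stood at 61.7 and 29.8 in KH2, at least 65.8-fold lower at 0 h and 20.9-fold lower at 6 h. Dcdc2a, a doublecortin-domain gene, stood at 2.2 and 1 against 76.5 and 31.5, and Spata31d1b at 1.9 and 1 against 46.1 and 32.7. Slc6a12, a betaine and GABA transporter, stood at 0 and 3.3 against 11.3 and 59.5, and its call was lost with other KH2 cells in 2i/LIF as the 0 h control.

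Known targets of the miR-290 and miR-302 family were among the genes higher in the knockout. Of 12 listed genes, 6 were higher, 1 was lower and 5 were not called, beside 9.27% higher and 10.1% lower of all genes tested. Their median difference was 1.03, against -0.07 over all genes tested. The list was drawn up with earlier results of these data known, so its count is a description. Lats2, a kinase of the Hippo pathway and a direct target of the family, stood at 218.4 and 673.3 in the knockout and at 18.3 and 60.7 in KH2 (3.48, SE 0.21, adjusted p = 0.000924). Both knockout libraries lay above the highest of the 18 KH2 libraries, 94.4. Rbl2, a pocket protein that restrains E2F genes, stood at 354.1 and 350 against 92.2 and 71.4 (2.1, SE 0.18, adjusted p = 0.0014). Casp2, a caspase, stood at 913.8 and 776.2 against 258.3 and 256.5 (1.71, SE 0.14, adjusted p = 0.00128). These 3 genes kept their calls under each of the 17 alternatives.

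The other higher targets had smaller differences. Ei24, an apoptosis-related gene, was at 1194.4 and 685.2 against 559.1 and 328.6 (1.08), Tgfbr2, a TGF-beta receptor, at 166.3 and 333.8 against 80.9 and 161.9 (1.03), and Mbd2, which binds methylated DNA, at 156.3 and 163.3 against 107 and 82.7 (0.76). With the 0 h pair left out their adjusted p-values were 0.071, 0.126 and 0.0737, and with the 6 h pair left out they were 0.0526, 0.122 and 0.206. Mbd2 also lost its call without 72 h (0.0735) or 96 h (0.0727). Rhoc, a small GTPase, went the other way, at 47.8 and 49 against 127.8 and 104.2 (-1.24, SE 0.19, adjusted p = 0.00645), with an adjusted p of 0.0651 when 0 h was left out. Cdkn1a, the G1 inhibitor p21, stood at 2990.3 and 668.1 against 1478.3 and 555.4, and its difference of 0.64 missed the threshold (adjusted p = 0.0596). Nr2f2 was at 17.8 and 10.5 against 3.5 and 2.4 (adjusted p = 0.102). The Nodal antagonists Lefty1 (188.8 and 169 against 47.8 and 158.9) and Lefty2 (514.7 and 1166.7 against 535.7 and 1812.5) and the Wnt antagonist Dkk1 (0.9 to 5.2) were not called. With 0 h left out 3 of the targets were higher, and with 6 h left out 4 were.

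Targets of 2 other families were listed as well. Of 12 miR-17-92 targets 5 were higher and none was lower (median 0.52), beside 9.27% and 10.1% of all genes tested. The 5 were the cyclins Ccnd2 and Ccnd1, the zinc-finger repressor Zbtb4, Tgfbr2 and the BMP receptor Bmpr2. Ccnd2 stood at 22.2 and 68.6 against 2.6 and 7.1 (2.9, SE 0.49, adjusted p = 0.00805) and Ccnd1 at 2741.9 and 2065.2 against 375.7 and 1122.6 (1.87, SE 0.39, adjusted p = 0.0161). Without the 0 h pair none of the 5 was called (adjusted p = 0.0626 for Ccnd2 to 0.144 for Zbtb4), and without the 6 h pair 2 genes of the list were (Ccnd2 0.0692, Tgfbr2 0.122, Bmpr2 0.151 and Zbtb4 0.211 were not). Zbtb4 and Bmpr2 lost their calls without 72 h or 96 h as well (0.066 to 0.0679). Of 15 let-7 targets 3 were higher and 2 lower (median 0.17), beside 9.27% and 10.1% of all genes tested. The paralogs Lin28a and Lin28b, which block the maturation of let-7, went in opposite directions. Lin28a stood at 43.8 and 98.1 against 237.4 and 520.8 (-2.4, SE 0.24, adjusted p = 0.00174), and Lin28b at 286.6 and 242.4 against 85.2 and 32.7 (2.3, SE 0.31, adjusted p = 0.00387). Both knockout values of Lin28a lay below all 18 KH2 libraries. Dicer1 and Mycn (0.84) were higher too and Nras was lower (-0.68). Leaving out 0 h raised the adjusted p to 0.133 for Mycn and 0.119 for Nras, and leaving out 6 h to 0.159 for Mycn.

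Ago1 and all 3 Tnrc6 genes of the silencing complex were higher in the knockout. AGO proteins hold the microRNA and TNRC6 proteins recruit the deadenylases. Of 10 such factors 4 were higher and none lower (median 0.54), beside 9.27% and 10.1% of all genes tested. Ago1 stood at 2230.3 and 1935.2 against 570.4 and 652.4 (1.77, SE 0.17, adjusted p = 0.00171), above all 18 KH2 libraries (up to 1025.8). Tnrc6b stood at 1065 and 1329 against 401.7 and 476.2 (1.44, SE 0.17, adjusted p = 0.00263), Tnrc6a at 715.6 and 1005.7 against 292.2 and 530.4 (1.11), and Tnrc6c at 285 and 285.7 against 174.8 and 150 (0.81). The knockout libraries of these 4 genes lay above all 18 KH2 libraries, as did those of 8.32% of all genes tested. Ago2, at 4503.4 and 3641 against 2739.1 and 2565.5, missed the threshold (0.61, adjusted p = 0.0803). Ago3, Ago4, Trim71, Pan3 and Cnot1 were not called. Without 0 h the adjusted p was 0.0728 for Tnrc6a and 0.0639 for Tnrc6c, and without 6 h it was 0.0935 for Tnrc6c.

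Among 11 genes of the processing machinery the calls were near the shares of all genes tested (9.27% and 10.1%). Dgcr8 (without 6 h, adjusted p = 0.13) was lower and Dicer1, which cuts the hairpin in the cytoplasm, was higher (969.1 and 1341.9 against 760.9 and 882.1; 0.48, adjusted p = 0.0401), a call lost under 9 of 17 alternatives (0.0952 to 0.242 without the 0 h, 6 h, 72 h or 96 h pair). Drosha stood at 658.8 and 682.9 against 530.4 and 682.7, the exporter Xpo5 at 1325.6 and 1203.3 against 1173 and 1064.3, and Isy1 at 357.8 and 312.4 against 267 and 358.9, and none of these was called. Of 21 protein-coding hosts of microRNAs 2 were higher and 3 lower (median 0.06). Pank1 and Pank3, pantothenate kinases that host miR-107 and miR-103, were higher. Pank1 was at 199.7 and 175.2 against 68.7 and 53.6 (1.61, SE 0.21, adjusted p = 0.00334) and Pank3 at 1188.4 and 1198.6 against 616.5 and 609.5 (0.96), with adjusted p-values of 0.0787 and 0.0697 for Pank3 when 0 h or 6 h was left out. Sfmbt2, a Polycomb gene with an intronic microRNA cluster, was at 14.4 and 19.5 against 180.9 and 116.1 (-3.04, SE 0.29, adjusted p = 0.00171). Igf2 was lower, at 0 and 3.3 against 1.7 and 18.5, a call lost without any 1 of 4 pairs (0.0553 to 0.171 without 0 h, 6 h, 72 h or 96 h). AU018091, entered on the list as the host transcript of the miR-290 cluster, stood at 473.1 and 591.4 against 387.8 and 565.5. It was not called (0.18, adjusted p = 0.639). No label says that AU018091 is that transcript, so the level of the cluster's own transcript cannot be read from it. The other 10 noncoding hosts on the list were not analysed here.

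**Figure D3:**
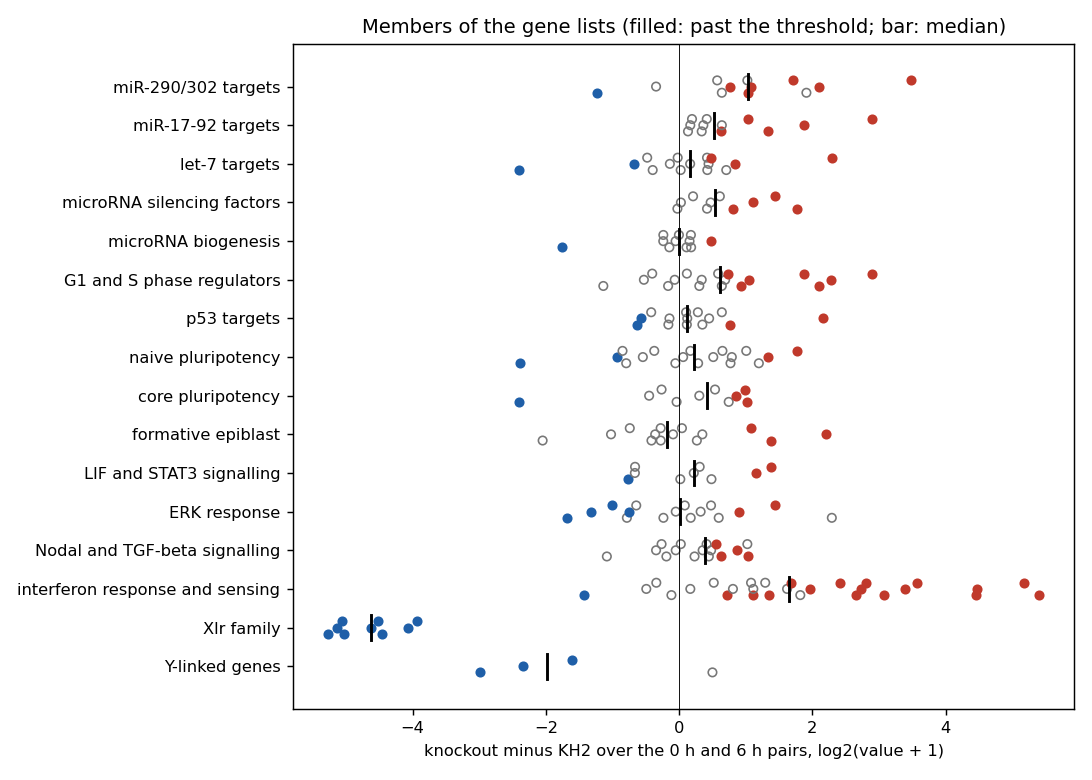
Difference of each member of 16 gene lists, knockout minus KH2 in log2(value + 1) over the pairs at 0 h and 6 h. Filled points passed the threshold (red higher, blue lower), open points did not, and a bar marks each list's median, from -4.63 for the Xlr family to 1.65 for the interferon list.

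Genes of the interferon response and of nucleic acid sensing formed the list with the most higher members, which was also the list with the most genes tested. Interferons act through STAT and IRF factors on promoter elements of the ISRE type, and RIG-I (Ddx58), MDA5 (Ifih1) and TLR3 sense double-stranded RNA. Of 32 listed genes 28 were tested, of which 16 were higher and 1 was lower, beside 9.27% and 10.1% of all genes tested. Their median difference was 1.65, or 1.32 with Ifit1 and Tlr3, which had no read in KH2 at 0 h or 6 h, set at their lower bound. The count was 5 without the 0 h pair, 12 without the 6 h pair and 11 with no term for hour. Several members were listed because earlier results had shown them, so the count is a description. In bulk RNA, a larger share of cells with these transcripts and more RNA per cell cannot be told apart.

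The effectors included Gbp2, Gbp4, Samd9l and Psmb8, given above. Zbp1, a sensor of Z-form nucleic acids, stood at 213.8 and 40.5 against 17.4 and 2.4 (3.58, SE 0.3, adjusted p = 0.0014). Nlrp12, an NLR family regulator of inflammatory signalling, stood at 2442.5 and 2601.9 against 273 and 210.1 (3.39, SE 0.39, adjusted p = 0.00263), with all 18 KH2 libraries at 273 or less. Nlrp12 lies on chromosome 7, as does the miR-290 cluster, and the distance between them was not examined. Oasl2, of the oligoadenylate synthetase family, stood at 43.8 and 19 against 3.5 and 1.8. The immunity-related GTPases Igtp (25.3 and 14.8 against 4.3 and 0.6) and Irgm1 (47.2 and 122.4 against 0.9 and 69.6) were higher, Irgm1 with most of its difference at 0 h and a call lost under 9 alternatives. Ifit1 stood at 9.1 and 2.9 in the knockout, at least 3.49-fold and 1.62-fold above the floor of KH2. Leaving out 0 h ended the calls of Psmb8 (0.0803), Oasl2 (0.0566), Igtp (0.0716), Irgm1 (0.389) and Ifit1 (0.112), and leaving out 6 h that of Igtp (0.122), in adjusted p. Irgm1 lost its call without each later pair too (0.0587 to 0.0672).

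Sensors and transducers were among the higher members as well. Ddx58 stood at 279.4 and 210 against 59.1 and 63.7 (1.96, SE 0.27, adjusted p = 0.00425). Tlr3 was at 4.4 and 4.3, at least 1.69-fold and 2.41-fold above the KH2 floor, a call lost under 8 alternatives (0.0557 to 0.159 without the 0 h, 6 h, 72 h or 96 h pair). Irf9 stood at 151.3 and 75.7 against 32.2 and 33.3 (1.68) and Irf1 at 221.3 and 191 against 100 and 90.5 (1.1). Ifitm3 had the smallest difference of the higher members (0.71). When 0 h was left out the adjusted p was 0.0575 for Ddx58, 0.0698 for Irf1, 0.118 for Ifitm3 and 0.144 for Irf9. When 6 h was left out it was 0.0553 for Ifitm3. Bst2, tetherin, was lower, at 315 and 230 against 1068.7 and 497.6 (-1.43, SE 0.17, adjusted p = 0.00291). Several classical interferon-stimulated genes were not called. Isg15 stood at 5.6 and 5.2 against 0.9 and 3.6, Mx1 at 3.1 and 3.3 against 3.5 and 3.6, Stat2 at 336.3 and 141.4 against 353 and 106.5, and Oas1a at 405.3 and 226.7 against 194.8 and 104.8 (adjusted p = 0.0546).

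The promoters of the list were searched for GAAANNGAAA, the core of the ISRE, on both strands from 250 bases before to 50 after the start (RefSeq, GRCm38.p6). The motif was in 3.99% of 27025 genes with a promoter entry, in 3.59% of 10688 tested genes, in 13 of 24 members of the list (54.2%), and in 6 of its 13 higher members that had an entry (46.2%). The windows below are from 4 higher members, the lower member and Isg15, a classical target that was not called. They give the strand of the gene and a match of the motif in capitals. Further matches, some of them overlapping it, are in lower case in the windows of Ifit1, Irgm1, Bst2 and Isg15. Stat2, Oas1a, Ifitm2 and B2m, also not called, hold the motif as well.
Gbp2 (chr3:142620579-142620638, + strand): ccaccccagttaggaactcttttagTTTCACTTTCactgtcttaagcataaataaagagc
Ifit1 (chr19:34640760-34640819, + strand): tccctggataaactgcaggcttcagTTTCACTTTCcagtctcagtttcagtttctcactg
Igtp (chr11:58199497-58199555, + strand): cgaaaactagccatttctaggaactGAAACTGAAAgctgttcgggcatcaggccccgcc
Irgm1 (chr11:48871421-48871475, - strand): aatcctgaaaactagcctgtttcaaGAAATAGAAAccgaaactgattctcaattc
Bst2 (chr8:71537568-71537627, - strand): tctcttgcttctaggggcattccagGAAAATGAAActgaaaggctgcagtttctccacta
Isg15 (chr4:156200862-156200921, - strand): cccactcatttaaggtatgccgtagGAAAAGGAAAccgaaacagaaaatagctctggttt
In Gbp2 and Ifit1 the motif lies on the other strand. Gbp2, Ifit1, Igtp and Irgm1 were higher, the last 3 with the limits given above, and Bst2, with the same motif, was lower. A match is a description of the letters and not of a bound site.

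Genes of the naive pluripotency network were called in both directions. Of 18 genes 2 were higher, 2 were lower and 14 were not called (median 0.23), near the shares of all genes tested (9.27% and 10.1%). The count of higher genes was 0 without 0 h or 6 h, 4 without 24 h or 48 h, and 5 with the 4 libraries alone or the other 0 h control. Klf2, a target of ERK inhibition in 2i, stood at 3156.9 and 1402.4 against 987.8 and 382.7 (1.77, SE 0.52, adjusted p = 0.0497), and Prdm14, a repressor of FGF signalling, at 1163.4 and 798.1 against 459.1 and 319.6 (1.33, SE 0.37, adjusted p = 0.0418). These calls were lost under 8 and 6 alternatives, among them the loss of 0 h (0.209 and 0.213) or 6 h (0.222 and 0.181). Dppa3 was lower, at 55.9 and 13.3 against 232.2 and 94.6 (-2.39, SE 0.4, adjusted p = 0.00776), and Klf5, at 749.4 and 1279.5 against 2062.6 and 1693.5, lost its call under 9 (0.314 without 0 h). Without 0 h or 6 h the adjusted p of Dppa3 was 0.0517 and 0.0719. Klf5 missed the threshold also without 24 h, 72 h or 96 h (0.0501 to 0.0575). Nanog (2942.2 and 2872.9 against 2724.3 and 2089.3) and Esrrb (2376.9 and 2111.9 against 2400.9 and 1923.8) were not called.

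The change in the line difference from 0 h to 6 h was tested across all genes. Tfcp2l1, a STAT3 target, stood at 14738.3 at 0 h and 3354.2 at 6 h in KH2, and at 23065.6 and 11259.5 in the knockout. Klf4 stood at 2519.1 and 206.5 in KH2 and at 1994.4 and 1058.1 in the knockout. For neither gene did the 6 h difference pass the test against the 0 h difference (Klf4 2.69, SE 0.97, adjusted p = 0.527; Tfcp2l1 1.1, SE 0.68, adjusted p = 0.683). Over all genes tested 1 passed that test (0.00615%), and 1450 passed an unadjusted p under 0.05. It was Spry4, a feedback inhibitor of ERK signalling. It stood at 114.4 and 974.3 in the knockout and at 2.6 and 1302.4 in KH2. The lines were thus 5 apart at 0 h and -0.42 at 6 h on the log2 scale, a change of -5.42 (SE 0.3, adjusted p = 0.0169). The KH2 value at 0 h is that of 3 reads (2.61 units), at the limit below which a level cannot be told from 0. The adjusted p of this change over its alternatives ran from 0.00947 to 0.327. The call was lost with a pseudocount of 5 (0.0597), without the intensity trend (0.327), and without the 24 h, the 48 h or the 72 h pair.

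**Figure D4:**
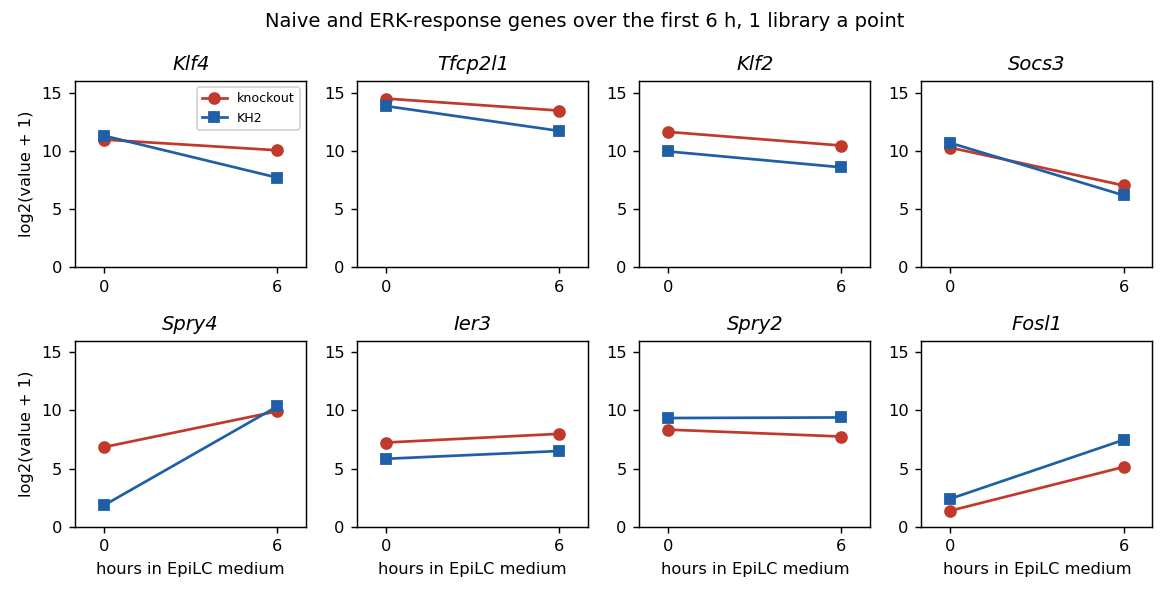
Levels in log2(value + 1) of 4 naive or LIF-response genes (top) and 4 genes of the ERK response (bottom) against hours in EpiLC medium, 1 library per point (red knockout, blue KH2). Klf4 and Tfcp2l1 lie further apart at 6 h than at 0 h, and Spry4 lies far apart at 0 h and close at 6 h.

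Other signalling genes changed in both directions. Of 16 genes of the ERK response 2 were higher and 4 lower (median 0.02), beside 9.27% and 10.1% of all genes tested. Ier3 stood at 150.6 and 253.8 against 56.5 and 90.5 (1.44, SE 0.24, adjusted p = 0.00798) and Spred1, an inhibitor of RAS signalling, at 391.3 and 631.4 against 171.3 and 411.9 (0.9). Spry2 stood at 325.9 and 215.7 against 651.3 and 673.8 (-1.32, SE 0.21, adjusted p = 0.00652), Fosl1, an AP-1 subunit, at 1.6 and 34.3 against 4.3 and 176.2 (-1.68), and Dusp4 at 12.2 and 222.9 against 40.9 and 283.3, a call lost under 11 alternatives (0.363 without 0 h, 0.0674 to 0.0723 without a later pair). With 0 h left out the adjusted p was 0.0656 for Ier3 and 0.0962 for Spred1. With 6 h left out it was 0.0624 for Ier3, 0.0604 for Spry2 and 0.253 for Fosl1, which also missed the threshold without 72 h (0.0577) or 96 h (0.0562). Both receptor chains for LIF were higher. Il6st, gp130, stood at 811.3 and 687.6 against 293.9 and 277.4 (1.38, SE 0.18, adjusted p = 0.00368), above all 18 KH2 libraries, and Lifr at 820.9 and 1280 against 418.3 and 509.5 (1.15, SE 0.25, adjusted p = 0.0179). Ptpn11, the phosphatase SHP2, was lower (-0.76), and 6 of the 9 genes of LIF signalling were not called. The calls of Lifr and Ptpn11 were lost without 0 h (0.085 and 0.0816) or 6 h (0.138 and 0.0692). Of 16 Nodal and TGF-beta genes 4 were higher and none lower (median 0.38), beside 9.27% and 10.1% of all genes tested. The count was 0 without 0 h, 1 without 6 h, 72 h or 96 h, and 0 with 2 knockout effects. Nodal stood at 768.1 and 730 against 292.2 and 574.4, a call lost under 10 alternatives (0.423 without 0 h, 0.0551 to 0.0773 without a later pair). Of 9 Wnt targets 1, Notum, was higher, at 514.7 and 359 against 53.9 and 71.4 (2.77, SE 0.61, adjusted p = 0.0188; 0.173 without 0 h and 0.0717 without 6 h).

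Of 10 genes of core pluripotency, 3 were higher and 1, Lin28a, was lower (median 0.42), beside 9.27% and 10.1% of all genes tested. Pou5f1 stood at 10110.3 and 8961.4 against 9689.6 and 9862.5. Sall4 was at 1548.8 and 2664.3 against 596.5 and 1668.5 (1.02), Utf1 at 898.8 and 2424.3 against 310.4 and 1795.8 (0.98), and Zfp281 at 507.2 and 1051 against 246.1 and 657.1 (0.86). Of 14 formative epiblast genes 3 were higher and none lower, although the median was -0.18. Dnmt3a, a de novo DNA methyltransferase, stood at 120.9 and 123.8 against 30.4 and 22 (2.2, SE 0.34, adjusted p = 0.00619), Otx2 at 302.2 and 268.6 against 171.3 and 68.5 (1.39), and Foxd3 at 209.7 and 266.2 against 93 and 132.7 (1.08). Pou3f1 was at 0.9 and 9 against 14.8 and 19.6 and was not called (-2.05, adjusted p = 0.07). Leaving out 0 h ended the calls of Sall4 (0.139), Utf1 (0.191), Zfp281 (0.105), Otx2 (0.0524) and Foxd3 (0.225), and leaving out 6 h those of Dnmt3a (0.06), Otx2 (0.245) and Foxd3 (0.15). Otx2 also missed the threshold without 24 h (0.0534) or 48 h (0.0533).

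Regulators of G1 and S phase were higher where they were called. Of 18 genes 7 were higher and none lower (median 0.61), beside 9.27% and 10.1% of all genes tested. Promoters and inhibitors of the cycle were among the 7. The count was 3 without the 0 h pair, 4 without the 6 h pair and 3 without the intensity trend. Cdk6, the partner of D-type cyclins, stood at 591.3 and 715.7 against 72.2 and 247 (2.27, SE 0.3, adjusted p = 0.00369). Both knockout values lay above all 18 KH2 libraries (up to 329). The pocket proteins Rbl2, given above, and Rb1 (102.2 and 122.4 against 65.2 and 43.5; 1.06, adjusted p = 0.0212, or 0.172 without 6 h) were higher too. Of 14 p53 targets 2 were higher and 2 lower, beside 9.27% and 10.1% of all genes tested. Pmaip1, the BH3-only protein NOXA, stood at 1230.6 and 1395.7 against 289.6 and 295.2 (2.16, SE 0.37, adjusted p = 0.00816) and Sesn2 at 1470.6 and 1414.3 against 915.7 and 789.9 (0.76). Mdm2 (-0.58) and Eda2r (-0.63) were lower, with calls lost under 10 alternatives each (0.0629 to 0.272 without 0 h, 6 h, 72 h or 96 h). Without 0 h or 6 h the adjusted p was 0.0728 and 0.0682 for Pmaip1 and 0.119 and 0.155 for Sesn2.

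Genes of the miR-200 family's best-known setting, the epithelial to mesenchymal transition, were called in both directions. Of 10 genes tested 2 were higher and 3 lower, beside 9.27% and 10.1% of all genes tested. Cldn6, an epithelial claudin, stood at 3.1 and 48.6 against 100 and 442.9 (-3.89, SE 0.38, adjusted p = 0.00171). Cdh2, N-cadherin, stood at 17.5 and 127.1 against 1.7 and 47 (2.1, SE 0.35, adjusted p = 0.00748), and the repressor Snai1 at 63.4 and 100 against 18.3 and 31 (1.7, SE 0.29, adjusted p = 0.00821). Vim was at 639.1 and 1841 against 71.3 and 1523.8, and missed the threshold (adjusted p = 0.0604). Twist1 was lower (-1.41), a call lost under 9 alternatives (0.329 without 0 h, 0.0594 to 0.0817 without a later pair). Cdh2 missed the threshold without 0 h (0.0591), and Snai1 without 0 h (0.072) or 6 h (0.056).

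Whether a difference belongs to the early hours was tested against the mean of the later ones (24 to 96 h) in the same lines. Of 16267 genes 43 passed (0.264%), 21 with a more positive and 22 with a more negative early difference, and 2129 passed an unadjusted p under 0.05. Lats2 (1.33, adjusted p = 0.0928), Rbl2 (0.15, adjusted p = 0.824), Casp2 (-0.6, adjusted p = 0.199), Ago1 (0.27, adjusted p = 0.636), Nlrp12 (-1.65, adjusted p = 0.207) and Lin28a (-0.72, adjusted p = 0.354) did not pass. Over 24 to 96 h the knockout held Lats2 at 277 to 434.2 and KH2 at 66.4 to 87.2, and Nlrp12 at 1809.9 to 3057 and 23.8 to 126.4. Gbp2 passed (4.78, adjusted p = 0.0384). Its KH2 values went from 3.6 at 24 h to 67.3, 160 and 186 at 48, 72 and 96 h, next to 30.8, 105.1, 94.3 and 165.5 in the knockout. Esrrb passed in the other direction (-1.52, SE 0.21, adjusted p = 0.0423), level between the lines at first and at 180.1 to 1738.8 against 55.7 to 817.3 later. The test called 0 genes without the 0 h, the 48 h, the 72 h or the 96 h pair. Without the 6 h pair it called 6 genes, which need not be among the 43, and Gbp2 was not one of them (adjusted p = 0.105).

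Differences also followed chromosomes. Among 13350 genes with a mean of at least 10 and a known chromosome, the median difference was 0.222 on chromosome 1 and 0.158 on chromosome 6, against -0.139 to 0.004 on the other 18 chromosomes. Of 809 genes on chromosome 1, 176 were higher (21.8%) and 61 lower (7.54%). Of 634 on chromosome 6, 98 were higher (15.5%) and 42 lower (6.62%). The share on the other 18 was 9.13% higher and 11.2% lower. The medians at 0 h and 6 h were 0.162 and 0.274 on chromosome 1 and 0.123 and 0.181 on chromosome 6, and at the later hours they were 0.15 to 0.223 and 0.115 to 0.378. Of the genes named above, Prdm14, Zfp281 and Bmpr2, which were higher, and Tfcp2l1, Lefty1 and Lefty2, which were not called, lie on chromosome 1. On chromosome 6 lie Casp2, Ccnd2, Samd9l and Smyd1, which were higher, Dppa3 and Slc6a12, which were lower, and Nanog and Isy1, which were not called. DNA copy number was not measured, and its part in the calls was not tested.

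**Figure D5:**
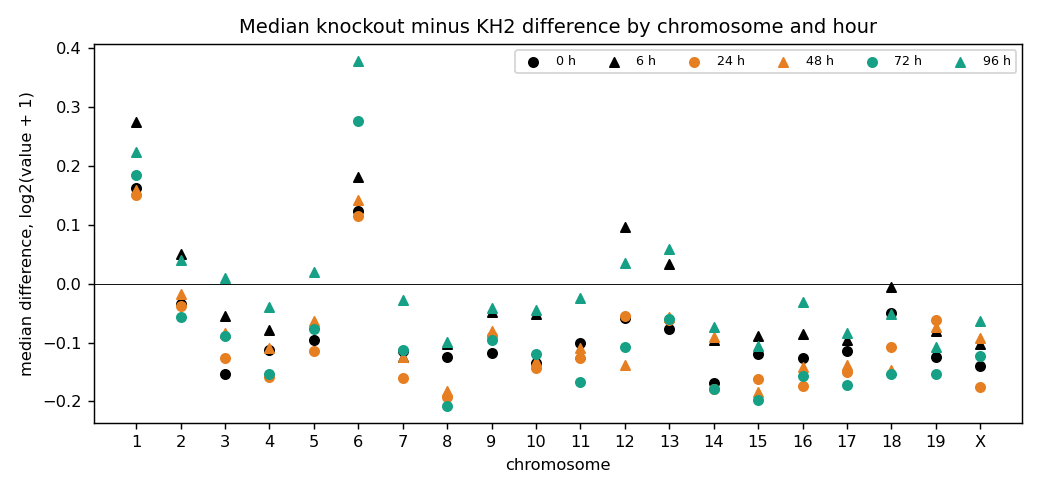
Median difference per chromosome, knockout minus KH2 in log2(value + 1), for each of the 6 hours (1 point per hour). Chromosomes 1 and 6 lie above 0 at every hour, at 0.15 or more and 0.115 or more, and most others lie below it.

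The lines differed in Y-linked genes as well. Eif2s3y, a translation factor subunit, stood at 16.3 and 21.9 against 114.8 and 213.7 (-2.99, SE 0.35, adjusted p = 0.00263). Ddx3y, an RNA helicase, stood at 39.1 and 66.7 against 235.7 and 297.6 (-2.35, SE 0.21, adjusted p = 0.00153), and Uty at 10.9 and 9 against 33.9 and 31 (-1.62, SE 0.27, adjusted p = 0.00805; 0.0575 without 0 h and 0.0546 without 6 h). The knockout values of these 3 genes lay below all 18 KH2 libraries. Kdm5d, the fourth, stood at 126.3 and 173.8 against 78.3 and 139.3 and was not called. Whether these and the Xlr differences go with DGCR8 or with the line cannot be told apart.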

How the data were processed

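PolyA RNA (TruSeq stranded kit, 3 ug of total RNA per library, per the labels' protocols) was read in 1 library per line and hour. The deposited values are of the unit signal: gene reads that the authors divided by 1 size factor per library, judged from the steps between low values. Whole reads were not recovered for the knockout libraries, and no test on counts was run. Of their low values, 62.5% (0 h) and 94% (6 h) lay within 0.1 reads of a whole number. The values are rounded to 1 decimal, and 1 read was worth 0.313 (0 h) and 0.476 units (6 h). Rounding alone can thus move a value by more than 0.1 reads, so these shares do not tell whether the values hold whole reads. Bowtie and the builds GRCm38 and mm9 are named in the submitters' processing notes, without version or role; the counter, its use of strand and the annotation are not given in the sources used here. The microRNA values are signal too, on a scale not given there, and 5 columns of that table were not used. The table holds 16345 named genes; 1 row without a name was dropped, and 20 genes with date-like names were tested but not named.

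Values were analysed as log2(value + 1) with limma 3.58.1 (R 4.3.3; empirical Bayes with an intensity trend, two-sided, Benjamini-Hochberg over all genes, threshold 0.05). The fit took genes whose mean was 1 or more in the 12 libraries (knockout and KH2 without Dox at 0, 6, 24, 48, 72 and 96 h), with hour as a block and 3 knockout effects, leaving 3 residual degrees of freedom (prior 5.04). The early effect was set against the mean of the later 2, and 6 h against 0 h in a fit with 4 effects (2 residual degrees of freedom), which assumes that those libraries vary like the later pairs. A difference on this scale understates the change of genes with low values.

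Named genes are the 12 higher and 12 lower called genes (mean in the 4 libraries 10 or more, same direction in both pairs) with the largest smaller pair difference, up to 6 genes per direction for the tests between hours, and up to 6 members per list, or any member of the miR-290/302 target, biogenesis, silencing, naive, Xlr and interferon lists. Pou5f1, Socs3 and Fgf5 fall outside this and were chosen after their values were seen. Gene lists (32) and members were chosen with earlier results of these data known. Some results of named genes are not reported here. The 17 alternatives changed the pseudocount, filter, scaling, trend, libraries, block, 0 h control or pairs used. Sequences are from RefSeq (GRCm38.p6); 96.5% of tested genes had a chromosome there.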

Additional observations from a re-analysis of the deposited data

Results flagged for a closer look

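The genes named here had a knockout difference over 0 h and 6 h that differed, by limma, from that over 24 to 96 h. The early difference was below the later one by -5.22 for Tgfbi (adjusted p = 0.0258), -3.71 for Rassf4, -3.66 for Msln, -3.5 for Emp1 and -3.04 for Rnf165, in log2(value + 1), with adjusted p-values of 0.0237 to 0.0475. Tgfbi, an extracellular matrix protein, stood at 14.1 and 4.8 in the knockout against 122.6 and 20.2 in KH2 at 0 h and 6 h, and at 16.9 to 314 against 11.8 to 15 later. The early difference was above the later one by 4.78 for Gbp2, 4.09 for Ido2, 3.34 for Dtna, 2.95 for Pllp, 2.75 for Bok and 2.69 for Rragb, with adjusted p-values of 0.0384 to 0.0426. Ido2, a tryptophan-degrading enzyme, stood at 194.7 and 133.3 against 7 and 11.9, and at 26.8 to 56.1 against 21.2 to 92.3 later. Each of these calls was lost without the 0 h, the 6 h, the 48 h, the 72 h or the 96 h pair.

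Spry4 was the gene whose knockout difference at 6 h differed from that at 0 h, by -5.42 (adjusted p = 0.0169 by limma), with the limits given above.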

How the results depend on the processing

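Against 1508 higher and 1643 lower genes, leaving out 1 pair at a time gave 468 to 1626 higher and 251 to 1829 lower genes (65.1% of calls higher without 0 h, against 47.9%). Without the intensity trend 886 and 1019 were called and without a term for hour 545 and 614. The 4 libraries at 0 h and 6 h alone gave 1074 and 925 and median-ratio scaling 1879 and 1255. With KH2 cells returned to 2i/LIF as the 0 h control 1679 and 1172 were called (58.9% higher), and 10 called genes had the other sign. The pseudocount, filter, trimmed-mean scaling and 2 knockout effects kept both counts within 1.5 times.

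The 43 genes that differed between early and later hours became 0 without the trend, 2 with 2 knockout effects, 1 without a term for hour, 0 with the other 0 h control, and 0 to 35 when a pair was left out. The 1 gene that differed between 6 h and 0 h became 0 with a pseudocount of 5, 0 without the trend, 2 with the other 0 h control, and 0 to 1 when a later pair was left out. That test could not be fitted without the 0 h or the 6 h pair, nor the early against later test with 4 libraries. The causes of these changes were not tested.

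Of 141 called genes in the named lists, 42 kept their call under each alternative and none was called in the other direction. The labels give no replicate numbers, and the pairing used throughout is that of the hours. Each condition has 1 library, and in the shallowest library 1 read is worth 0.87 units, so a level under 3 reads there (2.61 units) cannot be told from 0.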

Other observations

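Genes of differentiated tissues were mixed in the knockout. For each count here, the shares of all genes tested were 9.27% higher and 10.1% lower. Of 14 muscle genes 2 were higher and 2 lower. Ttn, the giant sarcomere protein, stood at 219.7 and 802.9 against 29.6 and 47 (3.46, SE 0.33, adjusted p = 0.00171), while the intermediate filament gene Des stood at 5 and 6.2 against 158.3 and 85.1 (-4.16, SE 0.37, adjusted p = 0.00146). Of 13 neuronal genes 3 were higher and 2 lower. Lrrn2, a leucine-rich repeat protein that lies on chromosome 1, stood at 205.6 and 69 against 3.5 and 4.2 (4.64, SE 0.46, adjusted p = 0.00171), and Sox1 at 12.8 and 14.3 against 53 and 72.6 (-2.12), with adjusted p-values of 0.0931 and 0.103 when 0 h or 6 h was left out. None of 11 trophoblast, 7 primitive streak or 6 two-cell-like genes tested was called. The two-cell-like genes summed to only 0 and 0.5 in the knockout and 1.8 and 3.6 in KH2, too low for the lack of calls to decide anything. Of 11 endoderm genes 2 were higher and 2 lower, with Gata6 at 0.6 and 2.9 against 22.6 and 7.1, a call lost under 10 of 16 alternatives (0.361 without 0 h, 0.0634 to 0.0679 without a later pair).

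Germline genes also split. Piwil2, of the piRNA pathway, stood at 332.5 and 361.4 against 113 and 128.6 (1.52, SE 0.2, adjusted p = 0.00367), and Dazl, an RNA-binding protein of germ cells, at 45.6 and 160.5 against 259.1 and 1137.5 (-2.65, SE 0.23, adjusted p = 0.0014). Of 8 genes of DNA methylation 3 were higher: Dnmt3a, Tet3 (1.21) and Tet1 (0.74). Of 14 imprinted genes 3 were lower and none higher: Igf2, Phlda2 (-1.69) and Grb10 (-1.41). Of 9 Hippo pathway and YAP target genes Lats2 and Lats1 (1.03) were higher and Birc5 (-0.89), the survivin gene, lower. Of 15 glycolysis genes 1 was higher and 2 were lower, all by less than 1 on the log2 scale (all genes tested, 9.27% higher and 10.1% lower). None of the 3 (Tpi1, Aldoa and Pgk1) was called without 0 h, 72 h or 96 h (adjusted p 0.0527 to 0.26).
Leaving out 0 h ended the calls of Tet3 (0.144), Tet1 (0.086), Igf2 (0.0728), Phlda2 (0.265), Grb10 (0.203), Lats1 (0.0767) and Birc5 (0.104), in adjusted p. Leaving out 6 h ended those of Dnmt3a (0.06), Tet1 (0.24), Igf2 (0.171), Phlda2 (0.0525), Grb10 (0.0804) and Birc5 (0.0818), and Tet1 and Igf2 also missed the threshold without 72 h or 96 h (0.0553 to 0.0602).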
